A study of Mus musculus with 6 samples.

Results

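The mouse mitochondrial genome is a small circular DNA that carries its own genes, and the transcripts of these genes in the lung are described here. Its members were taken as every row of the deposited gene table placed on chromosome MT, which gave 37 of 54532 genes. They comprised 13 mRNAs, 2 rRNAs and 22 tRNAs. The libraries came from perfused whole lungs of untreated mice at 2 months, with 3 WT and 3 ISM1-KO libraries. WT mice were purchased C57BL/6J animals. The ISM1-KO mice lacked the secreted protein ISM1 and were bred in-house on C57BL/6J, so the genotype and where the animals came from cannot be told apart. The study calls the libraries of each genotype biological replicates. RNA was selected by its poly-A tail, and values are read counts per gene.

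Both strands of mitochondrial DNA are transcribed as long precursors by a single-subunit RNA polymerase, and most mRNAs and rRNAs are released when the tRNAs that lie between them are cut out. The mRNAs all encode subunits of the respiratory chain complexes I, III and IV or of the ATP synthase, called complex V, which the cell builds together with subunits encoded in the nucleus. Most mitochondrial mRNAs receive short poly-A tails and mature tRNAs do not. Selection by poly-A therefore weights the transcript classes differently, and it can weight single mRNAs differently too. Fragments of mitochondrial DNA have also been copied into nuclear chromosomes in evolution, and reads from a gene and its nuclear copy cannot be told apart where the letters are the same.

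Total counts were 37606133 to 42345042 per library. Counts of Ism1 were 3098, 3215 and 2975 for WT against 2784, 2508 and 2953 for ISM1-KO libraries, a log2 fold change of -0.19 ± 0.0709 (SE) with an adjusted p of 0.217 in edgeR's quasi-likelihood test. Every ISM1-KO count of the targeted gene lay below every WT count, before scaling for library totals, but the gap was narrow. The test did not call the gene, and the groups rest on the labels. Alveolar type 2 cell markers, among them the surfactant protein genes, summed to 21742 to 22275 CPM (counts scaled to a common library total) in WT and 20660 to 21613 CPM in ISM1-KO libraries. Markers of the labelled tissue were thus present in both genotypes. These sums did not overlap, but the gap was narrow, and 21.6% of single genes did not overlap either. None of the 7 markers was called at an adjusted p under 0.1 in edgeR, and their median log2 fold change was -0.02. In bulk lung, fewer cells of a type and less RNA per cell cannot be told apart.

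The sequences below show how the genes are laid out and where nuclear copies differ. They were read from GENCODE M21 transcripts, on GRCm38, and are written 5′ to 3′ on the strand of each gene. mt-Atp8 and mt-Atp6, which encode ATP synthase subunits, share 43 bases at chrMT:7927-7969. There, the capitals mark the start codon of mt-Atp6 and the stop codon of mt-Atp8.
mt-Atp8/mt-Atp6 overlap: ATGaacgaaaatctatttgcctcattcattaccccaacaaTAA
The genes of mt-Co3 (complex IV), mt-Nd4 (complex I) and mt-Cytb (complex III) end 1 base after their last full codon. That base is the capital T at the end of these stretches, at chrMT:9351-9390, chrMT:11505-11544 and chrMT:15249-15288, and the poly-A tail is what completes a stop codon from it.
mt-Co3: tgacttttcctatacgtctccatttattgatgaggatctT
mt-Nd4: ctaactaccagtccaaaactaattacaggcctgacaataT
mt-Cytb: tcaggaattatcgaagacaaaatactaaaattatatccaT
mt-Nd3, a complex I subunit, has a nuclear copy named Gm28438, and the capital marks the base that differs between chrMT:9459-9518 and chr1:24613060-24613119. The difference is T3C, counted from 1 at the 5′ end of mt-Nd3.
mt-Nd3: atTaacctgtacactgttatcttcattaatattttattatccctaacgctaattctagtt
Gm28438: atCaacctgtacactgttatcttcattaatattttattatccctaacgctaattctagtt
mt-Co1, the catalytic subunit of complex IV, is matched by the nuclear model Gm29216 only in its last part. The start of that nuclear model, chr1:24616138-24616197 against chrMT:6381-6440, holds the differences T1056A, C1057T, A1059G, A1060G, C1062A and A1066T.
mt-Co1: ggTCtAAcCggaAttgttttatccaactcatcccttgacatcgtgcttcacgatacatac
Gm29216: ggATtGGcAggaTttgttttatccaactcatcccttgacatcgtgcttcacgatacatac
The tRNAs for threonine (mt-Tt, chrMT:15289-15355, on the strand of most genes) and proline (mt-Tp, chrMT:15356-15422, on the opposite strand) are neighbours, and their values are compared further on.
mt-Tt: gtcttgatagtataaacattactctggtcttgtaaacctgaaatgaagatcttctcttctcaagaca
mt-Tp: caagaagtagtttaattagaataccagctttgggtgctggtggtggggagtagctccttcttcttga

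Mitochondrial genes took 2.20%, 1.72% and 1.84% of all counts in WT and 1.70%, 1.78% and 1.86% in ISM1-KO libraries. The means were 1.92% ± 0.250 (SD, n = 3) and 1.78% ± 0.0845 (SD, n = 3). The highest share was that of WT replicate 1, the other 5 libraries lay close together, and the genotypes overlapped. Without WT replicate 1 the WT mean was 1.781% and the ISM1-KO mean 1.779%. With 3 libraries against 3, an exact permutation test cannot give a p under 0.1. The shares include genes with nuclear copies, described below, so they depend on how reads matching more than 1 place were counted. Without the genes with a nuclear copy, the mitochondrial share still overlapped between the genotypes.

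By class, mRNAs took 2.16%, 1.68% and 1.80% of the counts in WT and 1.66%, 1.74% and 1.82% in ISM1-KO libraries. The rRNAs took 0.0377%, 0.0366% and 0.0376% in WT and 0.0388%, 0.0374% and 0.0482% in ISM1-KO libraries. Both classes overlapped between the genotypes, with WT replicate 1 highest for mRNA and ISM1-KO replicate 3 highest for rRNA. The 22 tRNAs together had only 254 to 300 counts per library. Within the mitochondrial counts, mRNAs made up 98.25%, 97.84% and 97.92% in WT and 97.67%, 97.85% and 97.38% in ISM1-KO libraries. There were 1.74, 2.17 and 2.08 rRNA counts per 100 mRNA counts in WT and 2.34, 2.15 and 2.66 in ISM1-KO libraries, which overlapped by the values of WT replicate 2 and ISM1-KO replicate 2. The tRNA share of mitochondrial counts was 0.0338%, 0.0356% and 0.0372% in WT and 0.0418%, 0.0429% and 0.0375% in ISM1-KO libraries, without overlap but with a narrow gap.

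**Figure D1:**
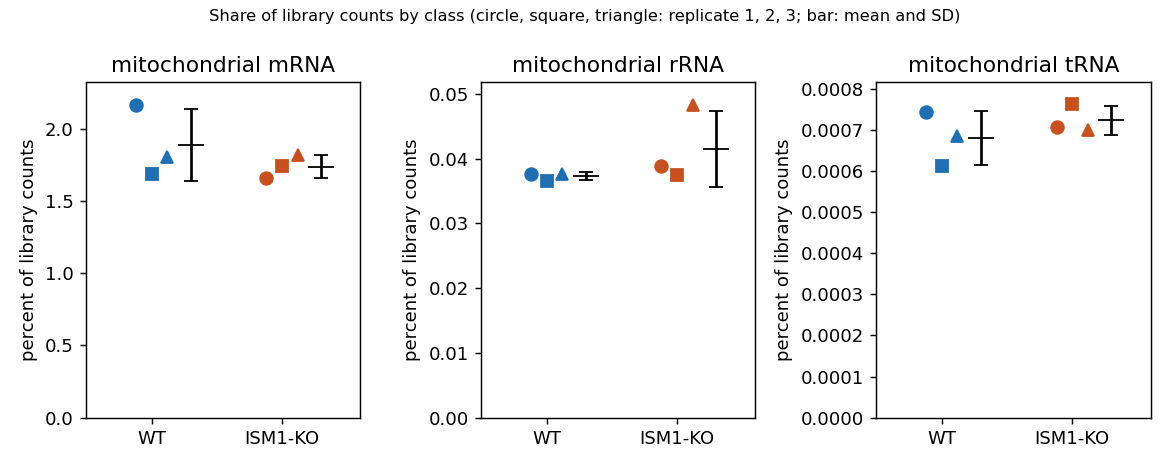
Percent of library counts on mitochondrial mRNAs, rRNAs and tRNAs (y axes, each from 0), with 1 point per library, blue for WT and orange for ISM1-KO, and the mean and SD of 3 libraries beside them. The genotypes overlap in all 3 classes, with WT replicate 1 highest for mRNA (2.16%) and ISM1-KO replicate 3 highest for rRNA (0.0482%).

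The libraries that stood out also differed in marker genes. Of 16 cardiomyocyte markers, such as Myh6 and Nppa, 15 were tested, all 15 had negative log2 fold changes and 1, Myl7, passed the test (-1.11, adjusted p = 0.0970 in edgeR). All 15 had an unadjusted p under 0.05 in edgeR, against 15.8% of all genes tested, and DESeq2 called 2. Of all genes tested, 4.72% were called by edgeR and 3.34% were called lower, and DESeq2 called 6.88%. The summed level of the cardiomyocyte markers was 1902, 634 and 753 CPM in WT and 343, 477 and 682 CPM in ISM1-KO libraries. WT replicate 1 was thus highest here as it was for mitochondrial mRNA. No marker of this list was at 0 in every library, and Myl2 had 0 to 9 counts. The 6 alveolar type 1 markers summed to 3038 CPM in WT replicate 1 and to 4077 to 4280 CPM in the other 5 libraries. The 8 brown adipocyte markers, of which 7 were tested and 2 (Cox8b and Ppara) called lower, ranged from 66.8 to 80.0 CPM in WT and from 56.9 to 61.1 CPM in ISM1-KO libraries. Ucp1, the defining marker of brown fat, had 232, 2 and 24 counts in WT and 5, 4 and 3 in ISM1-KO libraries. The 8 adipocyte markers, of which 7 were called lower, ranged from 242 to 286 CPM in WT and from 96.0 to 169 CPM in ISM1-KO libraries. Heart muscle and brown fat are rich in mitochondria, and the part of these cells in the mitochondrial share was not tested. Among the 13 mRNAs, WT replicate 1 was the highest library for 8. In TMM-scaled CPM, all 13 in it lay at 0.945 to 1.50 times the mean of the other 5 libraries. Both rRNAs in it were at 0.938 to 0.947 times that mean.

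**Figure D2:**
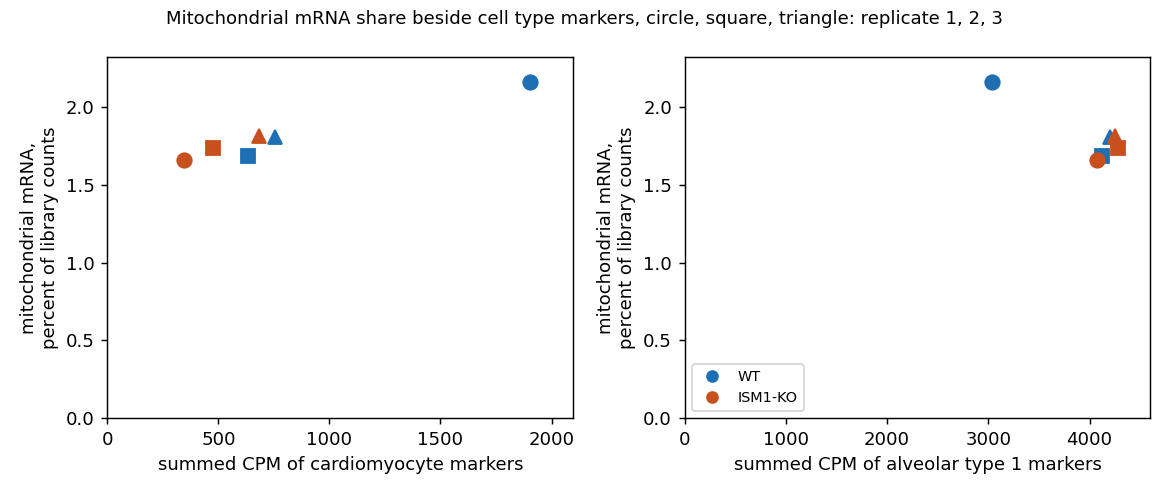
Percent of library counts on mitochondrial mRNAs (y axis) against the summed CPM of cardiomyocyte markers (left x axis) and alveolar type 1 markers (right x axis), 1 point per library, blue for WT and orange for ISM1-KO. WT replicate 1 (blue circle) lies apart in both panels, at 1902 CPM and 3038 CPM.

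Levels were compared between genes as the FPKM that the authors deposited, in which the count is divided by the gene length and the library total. The order over the 6 libraries began with mt-Co1 at a mean of 4159 FPKM (chrMT:5328-6872), followed by mt-Cytb at 3001 FPKM (chrMT:14145-15288). The complex I genes mt-Nd1 (chrMT:2751-3707), mt-Nd2 (chrMT:3914-4951), mt-Nd5 (chrMT:11742-13565) and mt-Nd4 (chrMT:10167-11544) followed at 2174, 1953, 1338 and 1125 FPKM. Neighbours in this run of complex I genes overlapped in their ranges over libraries, while mt-Co1, mt-Cytb and mt-Nd1 did not overlap one another. These 6 mRNAs held 96.6% to 97.6% of all mitochondrial counts. That range also depends on how reads matching nuclear copies were counted, as described below.

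A wide step came next. The rRNAs of the large subunit (mt-Rnr2, chrMT:1094-2675) and the small subunit (mt-Rnr1, chrMT:70-1024) of the mitochondrial ribosome had means of 166 and 137 FPKM. mt-Nd6 (chrMT:13552-14070) had 107 FPKM and is the only mRNA on the opposite strand, from which only a few genes are read. The remaining mRNAs were mt-Co2 (40.3 FPKM, chrMT:7013-7696), mt-Atp6 (36.3, chrMT:7927-8607), mt-Co3 (24.9, chrMT:8607-9390), mt-Nd4l (20.9, chrMT:9877-10173), mt-Nd3 (13.96, chrMT:9459-9806) and mt-Atp8 (9.16, chrMT:7766-7969). These 7 mRNAs with mt-Nd6 included held 0.669% to 0.865% of the mitochondrial counts. In FPKM, mt-Co1 was 103 times mt-Co2 and 167 times mt-Co3, and the 3 proteins are subunits of the same complex IV. mt-Nd4 was 27.9 times mt-Co2. Nearly all of mt-Co2 and mt-Co3 but only part of mt-Co1 and mt-Nd4 matches nuclear copies, as described below. These ratios therefore cannot be read as ratios of transcript level. Within this lower group, mt-Co2 overlapped mt-Atp6, mt-Co3 overlapped mt-Nd4l and mt-Nd3 overlapped mt-Atp8 in their ranges over libraries.

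**Figure D3:**
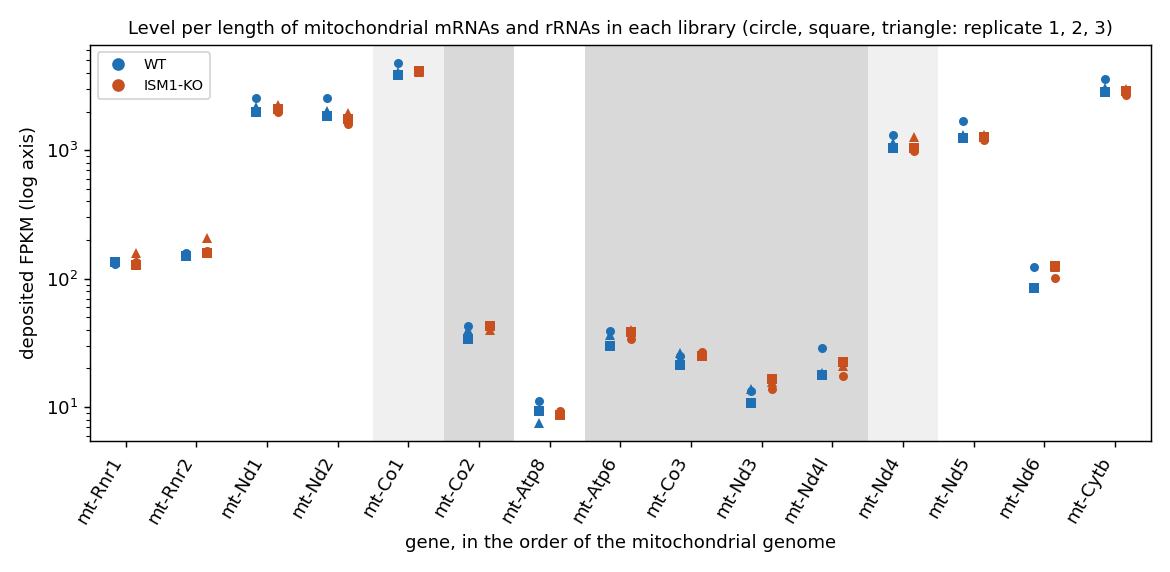
Deposited FPKM (log y axis) of the 13 mRNAs and 2 rRNAs in genome order, 1 point per library, blue for WT and orange for ISM1-KO. Dark grey marks the 5 genes whose 150-base windows nearly all have an identical nuclear copy and light grey marks mt-Co1 and mt-Nd4, which have one in part. The dark grey genes lie between 10.8 and 42.9 FPKM.

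The genes of the lower group were largely those with nuclear copies. Of the windows of 150 bases, the length of a read, that can be laid along each gene, the share found letter for letter in an annotated nuclear transcript was 99.8% for mt-Co3, 99.4% for mt-Co2 and for mt-Atp6, 98.0% for mt-Nd4l and 97.0% for mt-Nd3. It was 59.2% for mt-Nd4 and 23.6% for mt-Co1, and 0 for the other 6 mRNAs and both rRNAs. mt-Nd6 and mt-Atp8 were thus low without an identical window among the annotated transcripts. The part of poly-A selection in their low values was not tested. The copies are 7 unprocessed pseudogenes in a row at chr1:24611535-24616197, with a further model on chromosome 2, Gm13341, that matched 4.49% of the windows of mt-Co2. Only annotated transcripts were searched, and other nuclear sequence was not analysed here. This matters for mt-Atp8, which lies between mt-Co2 and mt-Atp6. The copy of mt-Atp6, Gm10925, ends at chr1:24614651 and that of mt-Co2, Gm28661, starts at chr1:24614885. Whether the sequence between them holds a copy of mt-Atp8 was not tested.

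For the 5 genes with near-complete copies, the nuclear models carried counts of a similar size to those of the genes. Over the 6 libraries there were 1.76 counts on Gm10925 per count on mt-Atp6, 1.23 on Gm28661 per count on mt-Co2 and 1.12 on Gm28437 per count on mt-Co3. The ratio was 1.08 for Gm10222 and mt-Nd4l and 0.581 for Gm28438 and mt-Nd3. It was only 0.0129 for Gm28439 and mt-Nd4 and 0.00366 for Gm29216 and mt-Co1, and it was 0.117 for Gm13341 and mt-Co2. How reads that match more than 1 place were counted is not given in the sources used here, so the levels of the 5 genes with near-complete copies, and those of the matched parts of mt-Nd4 and mt-Co1, are uncertain. The mitochondrial share, the mRNA share and all shares within the mitochondrial counts include these genes and carry the same limit. The nuclear models with identical windows together took 0.0134% to 0.0174% of library counts, which overlapped between genotypes. The log2 fold changes of the 8 ran from -0.10 to 0.09, with adjusted p-values from 0.685 to 0.984 in edgeR.

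Between genotypes, 22 of the 37 genes passed the filter of 0.5 CPM in at least 1 library, namely the 13 mRNAs, both rRNAs and 7 tRNAs. None of the 22 was called at an adjusted p under 0.1 in edgeR's quasi-likelihood test, where 4.72% of the 18689 genes tested were called, 1.38% higher and 3.34% lower. None of the 22 was called with a change of at least 2-fold either, against 0.567% of all genes. At an unadjusted p under 0.05 there were 2 of the 22 (mt-Nd2 and mt-Tt), against 15.8% of all genes tested. DESeq2 called none of the 22 and 6.88% of all genes, with 3 of the 22 (mt-Rnr2, mt-Nd2 and mt-Nd6) at an unadjusted p under 0.05. The median log2 fold change of the 22 was 0.04, beside 0.00 over all genes, and 11 were above 0 and 11 below. In TMM-scaled CPM, 2 of 22 (9.09%) did not overlap between the genotypes, mt-Rnr2 and mt-Tt, against 21.6% of all genes tested.

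Complex I mRNAs were spread on both sides of 0. mt-Nd2 had 98843, 80127 and 81037 counts in WT and 69876, 68744 and 80826 in ISM1-KO libraries. Its log2 fold change was -0.27 ± 0.118 (SE), with an adjusted p of 0.311 in edgeR, and it was -0.13 without WT replicate 1. Its CPM overlapped, since ISM1-KO replicate 3 lay above the lowest WT library. mt-Nd1, mt-Nd4, mt-Nd4l and mt-Nd5 had log2 fold changes of -0.08, -0.08, -0.10 and -0.15. The remaining complex I mRNAs had positive values, 0.28 ± 0.143 for mt-Nd3 and 0.26 ± 0.143 for mt-Nd6, with adjusted p-values of 0.377 and 0.419 in edgeR. mt-Nd6 had 2399, 1814 and 1701 counts in WT and 2233, 2451 and 2518 in ISM1-KO libraries, where WT replicate 1 lay among the ISM1-KO values. Without WT replicate 1 its log2 fold change was 0.47 with an adjusted p of 0.0543 in edgeR, so that library decides whether mt-Nd6 is called.

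The mRNAs of the other complexes had log2 fold changes between -0.13 and 0.12. mt-Cytb, the single mitochondrial subunit of complex III, was at -0.13 ± 0.0907, and at -0.03 without WT replicate 1. In complex IV, mt-Co1 was at -0.05 ± 0.0838, mt-Co2 at 0.12 ± 0.0858 and mt-Co3 at 0.10 ± 0.0883. In complex V, mt-Atp6 was at 0.10 ± 0.102 and mt-Atp8 at -0.03 ± 0.198. Without WT replicate 2, mt-Co2 was at 0.03, mt-Co3 at 0.01 and mt-Atp6 at 0.0004. None of these differences passed the test, and the adjusted p-values of the 13 mRNAs lay between 0.311 and 0.959 in edgeR. The 7 mRNAs with an identical window in a nuclear model had a median log2 fold change of 0.10, and the other 6 one of -0.11.

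**Figure D4:**
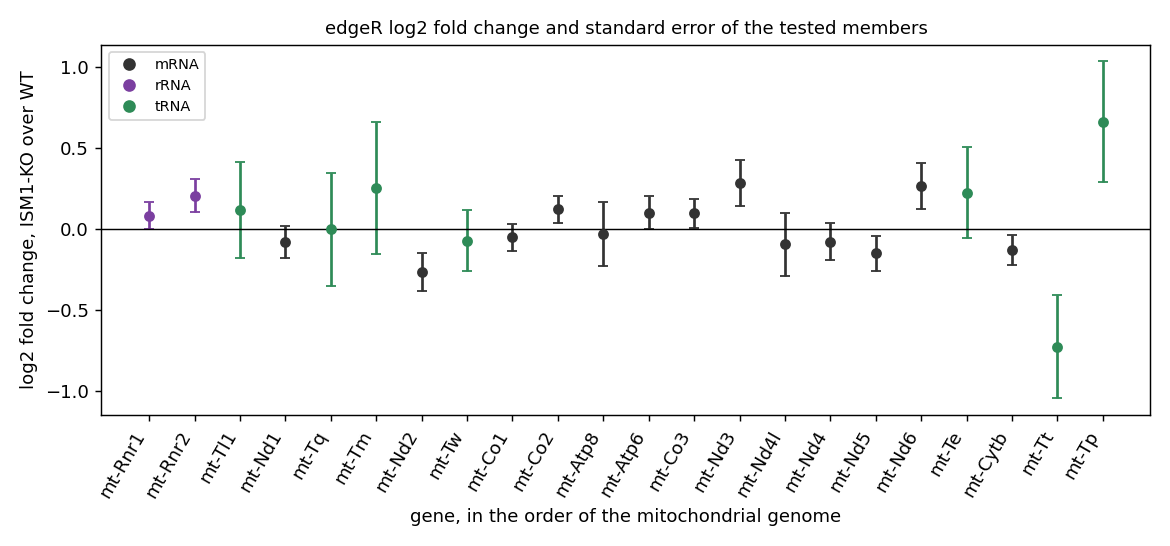
The edgeR log2 fold change, ISM1-KO over WT (y axis), of the 22 tested genes in genome order, with bars of 1 SE in each direction, black for mRNAs, purple for rRNAs and green for tRNAs. The bars of mt-Nd2, mt-Nd5, mt-Cytb and mt-Tt lie wholly below 0 and those of mt-Rnr2, mt-Co2, mt-Co3, mt-Nd3, mt-Nd6 and mt-Tp wholly above it, and none of the 22 passed at an adjusted p under 0.1.

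The rRNA of the large ribosomal subunit, mt-Rnr2, had 9484, 9804 and 9528 counts in WT and 10967, 9566 and 13103 in ISM1-KO libraries. Its CPM did not overlap between genotypes, but the gap was narrow, from 251.5 in the highest WT to 252.1 in the lowest ISM1-KO library, with ISM1-KO replicate 3 far above the others. The log2 fold change was 0.20 ± 0.101 (SE, adjusted p = 0.369 in edgeR). mt-Rnr1 had 4685, 5379 and 4975 counts in WT and 5465, 4627 and 6003 in ISM1-KO libraries, with a log2 fold change of 0.08 ± 0.0832 (adjusted p = 0.711 in edgeR). Both rRNAs were highest in ISM1-KO replicate 3, at 1.22 and 1.35 times the mean of the other 5 libraries, and leaving it out gave log2 fold changes of 0.06 for mt-Rnr2 and -0.02 for mt-Rnr1. A list of nuclear and non-polyadenylated RNAs, with Malat1, Neat1 and replication-dependent histone genes, was also highest in that library, at 4732 CPM against 3753 to 4264 CPM in the others. Most of that sum was Malat1 and Neat1, with 92215 and 76597 counts in that library. Rpl41, a ribosomal protein gene also on the list (11305 counts), and Hist1h4h (36 counts) were at their lowest there. WT replicate 1 was next highest for the list, at 4264 CPM, with both rRNAs at 0.938 to 0.947 times the mean of the other 5 libraries. Of the 80 entries on the list 21 were tested, and edgeR and DESeq2 called none, with 1 at an unadjusted p under 0.05 in edgeR. That gene was Hist1h4h at a log2 fold change of -0.64, and the most extreme others were Hist1h2be (-0.12), Hist1h4i (0.49) and Hist3h2ba (0.42). What part RNA of this kind has in the rRNA values was not tested.

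Transfer RNAs carry amino acids to the ribosome, and their genes are shorter than a read of these libraries. Of the 22 tRNA genes, 6 had 0 counts in every library, which allows up to 3 counts per library, 9 had at most 10 counts, and 7 were tested. All 6 at 0 (mt-Tf, mt-Tv, mt-Td, mt-Tk, mt-Th and mt-Tl2) lie on the strand of most genes. Of these, mt-Td lies between mt-Co1 and mt-Co2 and mt-Tk between mt-Co2 and mt-Atp6, which are genes with nuclear copies. Whether nuclear sequence outside annotated transcripts matches tRNA genes, and what this does to their counts, was not tested. mt-Tw, the tryptophan tRNA, had the most, with 108, 86 and 81 counts in WT and 96, 79 and 91 in ISM1-KO libraries, and a log2 fold change of -0.07 ± 0.187.

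The neighbours mt-Tt and mt-Tp had values of opposite sign. mt-Tt had 26, 27 and 29 counts in WT and 16, 12 and 22 in ISM1-KO libraries, all below the WT values. Its log2 fold change was -0.73 ± 0.319 (SE, adjusted p = 0.302 in edgeR). mt-Tp had 16, 43 and 20 counts in WT and 36, 54 and 35 in ISM1-KO libraries, which overlapped, with a log2 fold change of 0.66 ± 0.373 (adjusted p = 0.441 in edgeR). It was 1.16 without WT replicate 2 and 0.39 without ISM1-KO replicate 2. Both genes lie next to each other beyond the end of mt-Cytb, and their low counts give wide errors. The other tested tRNAs were mt-Tl1 (0.12 ± 0.299), mt-Tq (0.00 ± 0.347), mt-Tm (0.25 ± 0.406) and mt-Te (0.22 ± 0.281), whose standard errors were larger than the fold changes.

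Composition within the mitochondrial counts does not depend on how the libraries are scaled. It does depend on how reads matching nuclear copies were counted, which is not given in the sources used here. Of the 22 genes, 7 had a share of the mitochondrial counts that did not overlap between genotypes, 5 higher and 2 lower in ISM1-KO. Of all 18689 genes tested, 15.3% did not overlap when their counts were set against the same total, and 21.6% in TMM-scaled CPM. Nearly all of those genes are nuclear and take on the library variation of the mitochondrial total, so the 15.3% is not a like background. The smallest p over the 22 genes was 0.1 in the exact permutation test, and 0.314 after Benjamini-Hochberg adjustment. The shares of genes in a total sum to 100%, so the 7 genes without overlap are not independent of each other.

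The lower pair was mt-Nd2 and mt-Tt. mt-Nd2 took 11.9%, 11.2% and 11.4% of the mitochondrial counts in WT and 9.73%, 10.2% and 10.9% in ISM1-KO libraries, so its highest ISM1-KO value lay below its lowest WT value. Its neighbour of similar level, mt-Nd1, took 11.1%, 11.1% and 11.3% in WT and 11.1%, 11.2% and 11.6% in ISM1-KO libraries. The spread of mt-Nd1 within and between the genotypes was smaller than the difference seen for mt-Nd2. Other abundant mRNAs were less steady than mt-Nd1. Within ISM1-KO alone, mt-Nd4 ran from 7.96% to 9.32% and mt-Co1 from 33.4% to 36.9%. On the log2 scale, mt-Nd2 was lower by 0.16 and mt-Nd1 higher by 0.02 in ISM1-KO.

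The higher genes were mt-Rnr2, mt-Co2, mt-Atp6, mt-Nd3 and mt-Nd6, and of these mt-Co2, mt-Atp6 and mt-Nd3 are among those with near-complete nuclear copies. mt-Rnr2 took 1.15%, 1.37% and 1.34% in WT and 1.53%, 1.42% and 1.77% in ISM1-KO libraries. mt-Nd6 took 0.290%, 0.254% and 0.239% in WT and 0.311%, 0.364% and 0.341% in ISM1-KO libraries. mt-Nd6 comes from the opposite strand to the other 12 mRNAs, and per 100 counts of those 12 it had 0.296, 0.260 and 0.245 counts in WT and 0.319, 0.373 and 0.351 in ISM1-KO libraries. The 14 bases that mt-Nd6 shares with mt-Nd5, at opposite strands, are a small part of either gene. Whether strand was used in counting is not given in the sources used here. Whether selection by poly-A captured mt-Nd6 as it did the other 12 mRNAs was not tested. When the counts of the nuclear models were added to the genes they copy, mt-Co2 overlapped and mt-Atp6, mt-Nd3, mt-Nd6, mt-Rnr2, mt-Nd2 and mt-Tt still did not.

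**Figure D5:**
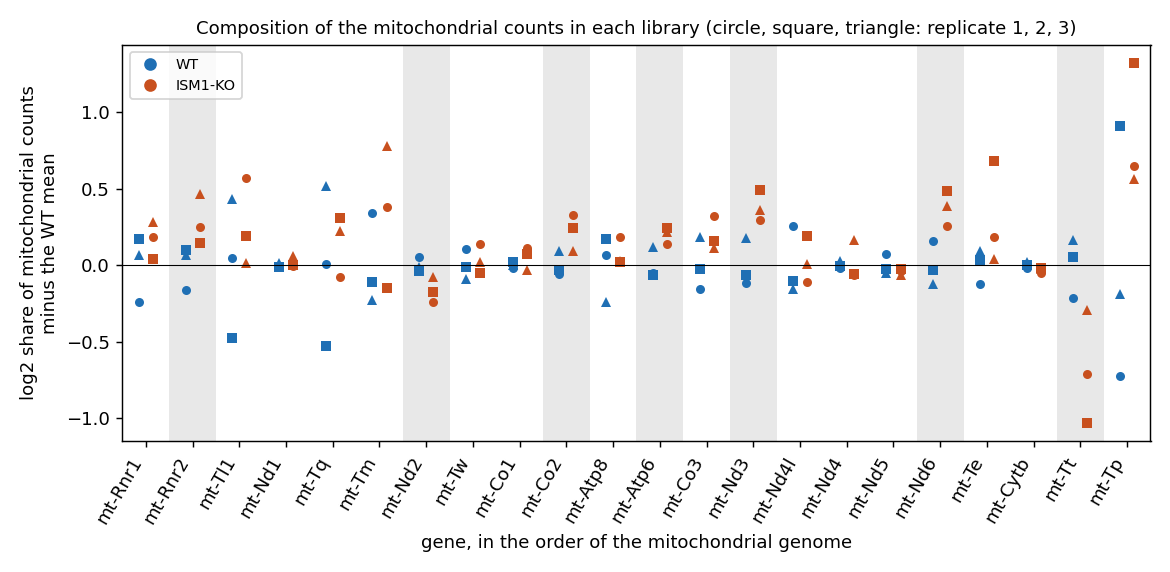
Log2 share of the mitochondrial counts minus its WT mean (y axis) for the 22 tested genes in genome order, 1 point per library, blue for WT and orange for ISM1-KO. Grey marks the 7 genes whose genotypes do not overlap, mt-Nd2 and mt-Tt lower and mt-Rnr2, mt-Co2, mt-Atp6, mt-Nd3 and mt-Nd6 higher in ISM1-KO.

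The tRNAs were also set apart by strand, a split chosen after their values were seen. The 8 tRNAs on the strand of mt-Nd6 had 76, 102 and 94 counts in WT and 117, 146 and 104 in ISM1-KO libraries, and the 14 on the other strand had 204, 152 and 170 in WT and 183, 143 and 173 in ISM1-KO libraries. In CPM the first group gave 2.02, 2.46 and 2.44 in WT and 2.76, 3.85 and 2.62 in ISM1-KO libraries, without overlap, while the second overlapped. Per 100 counts of the 12 mRNAs on the strand of most genes, the first group overlapped too.

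Nuclear genes of the same machinery were read from lists chosen with earlier results known, and the counts below are a description beside the 4.72% called over all genes. Of 75 nuclear subunits of complexes I to V, 74 were tested and none was called by edgeR. There were 13 at an unadjusted p under 0.05, a threshold that 15.8% of all genes passed, and DESeq2 called 1, Atp5g1, against 6.88% of all genes. Of the 74, 67 had a log2 fold change below 0, and the median was -0.08 beside 0.00 over all genes. Their summed level was 5324, 5139 and 5333 CPM in WT and 4951, 4946 and 4979 CPM in ISM1-KO libraries, without overlap. The sums of the RNA processing, ribosome and tRNA synthetase lists described next were likewise lower in ISM1-KO without overlap. The gaps were narrow for the ribosome (1678 against 1676 CPM) and the synthetases (374.5 against 374.4 CPM). The biogenesis regulator list went the other way without overlap, at 190.0, 197.8 and 191.2 CPM in WT and 200.7, 199.6 and 198.0 CPM in ISM1-KO libraries. The sums of the transcription, DNA maintenance and mitochondrial mass lists overlapped, as did that of the complex II subunits alone. Of single genes, 21.6% did not overlap, and no such share was taken over sums. Among the nuclear subunits, the lowest were Ndufc1 (-0.30) of complex I and Atp5g1 (-0.28) of complex V. The highest were Ndufb3 (0.08) and Ndufs4 (0.07) of complex I. Atp5o was listed at 0 counts in every library. Of the 3 complex IV subunit isoforms of muscle and brown fat, Cox8b was called lower (-1.13 ± 0.258, adjusted p = 0.0538 in edgeR), while Cox6a2 (-0.82) and Cox7a1 (-0.67) were not. Cox8b had 182, 101 and 120 counts in WT and 69, 51 and 68 in ISM1-KO libraries. WT replicate 1 was highest, as for the cardiomyocyte markers and the brown adipocyte markers, a list that itself includes Cox8b and Cox7a1.

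None of the factors that act on mitochondrial DNA or RNA passed the test. Of 10 transcription genes none was called by edgeR or DESeq2 and none had an unadjusted p under 0.05. Tfam, Polrmt and Lrpprc are named for their roles. Tfam, which packages and transcribes mitochondrial DNA, was at 0.03 ± 0.0687 and Polrmt, the mitochondrial RNA polymerase, at -0.06 ± 0.0879. The most extreme of this list were Tefm (-0.23), Tfb1m (-0.20), Mterf1a (0.24) and Mterf2 (0.11). Of 24 genes of RNA processing and stability none was called by either tool and 1, Rexo2 (-0.19), had an unadjusted p under 0.05. Lrpprc, which stabilises mitochondrial mRNAs, was at 0.01 ± 0.0645, 1110008L16Rik at -0.34, Slirp at 0.13 and Mtpap, the mitochondrial poly-A polymerase, at 0.08. Of 12 genes of mitochondrial DNA maintenance none was called by either tool and 1 had an unadjusted p under 0.05, which was Dna2 at -0.27. Top3a was at -0.12, Mgme1 at 0.14 and Rrm2b at 0.09.

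The mitochondrial ribosome list had 78 proteins, of which 77 were tested, and 1, Mrpl12, was called lower (-0.23 ± 0.0634, adjusted p = 0.0966 in edgeR). The median of that list was -0.02. Of 17 mitochondrial tRNA synthetases none was called by either tool and none had an unadjusted p under 0.05, with Fars2 at -0.18, Aars2 at -0.17 and Mars2 at 0.14. Of 6 regulators of mitochondrial biogenesis none was called by either tool and 1, Ppargc1b, had an unadjusted p under 0.05. It was at -0.54 ± 0.191 (adjusted p = 0.196 in edgeR), Ppargc1a at -0.10, Gabpa at 0.14 and Pprc1 at 0.05. Of 13 genes commonly used as measures of mitochondrial mass, none was called by either tool and none had an unadjusted p under 0.05, with Cs, the citrate synthase, at -0.13, Vdac3 at 0.06 and Tomm20 at 0.04.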

How the data were processed

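Lung RNA of 3 WT and 3 ISM1-KO mice was analysed. The authors aligned read pairs with STAR on GRCm38. They deposited raw gene counts that had not been normalized, together with FPKM values, which for the mitochondrial genes equal the count divided by gene length and library total, on the usual scale. The counting program, strand setting and annotation release are not given in the sources used here. Per the labels, RNA was captured by poly-A or depleted of rRNA, and the study's methods name poly-A enrichment.

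Genes on chromosome MT were taken as members, and all named gene lists and members were chosen with earlier results of these data known. The 13 mRNAs, 2 rRNAs and tRNAs with at least 10 counts in every library were named, with list members at an adjusted p under 0.1 or, otherwise, those with the largest fold changes. Some genes that this rule names are not reported here. Genes with 0.5 CPM in at least 1 library were tested in edgeR 4.0.16 (R 4.3.3, TMM, quasi-likelihood test, Benjamini-Hochberg over 18689 genes) and called at an adjusted p under 0.1. DESeq2 1.42.0 was an alternative. On simulated counts edgeR recovered 197 of 200 changed genes, with 27 of 224 calls false. Whether edgeR recovers log2 fold changes as small as those of the mitochondrial mRNAs and rRNAs was not tested. Recovery at counts as low as those of most tested tRNAs was not tested either. Nuclear copies were found with blastn 2.17.0 among GENCODE M21 transcripts. Depth was 37606133 to 42345042 counts per library, and floors cover counting error only.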

Additional observations from a re-analysis of the deposited data

How the results depend on the processing

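The count of called mitochondrial genes (0 of 22) was 1 without a filter on low counts (mt-Nd2, log2 fold change -0.27, adjusted p = 0.0426 in edgeR) and ranged from 0 to 1 when a library was left out, with mt-Nd6 called without WT replicate 1. It was 0 with RLE size factors, DESeq2, 0.5 CPM in at least 3 libraries, typed genes with a mean above 2 CPM, scaling without mitochondrial rows, an adjusted p under 0.05 and the nuclear copies added, the last chosen after seeing the data. The calls over all genes (882) were 1632 without a filter and 455 at an adjusted p under 0.05, and ranged from 150 (without WT replicate 2) to 1470 (without ISM1-KO replicate 3). For these counts the cause was not tested. The replicate numbers did not pair the samples, with correlations of -0.0405, 0.031 and 0.00101 between same-numbered libraries. The replicate block gave 0 mitochondrial calls and 1105 over all genes, with mt-Tq at 0.0234 under the block.

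Log2 fold changes of 11 genes, none called, crossed 0 when a library was left out. Their ranges were -0.0244 (without ISM1-KO replicate 3) to 0.148 for mt-Rnr1, -0.139 to 0.307 for mt-Tl1, -0.157 to 0.027 for mt-Nd1, -0.277 to 0.241 for mt-Tq, -0.0427 to 0.569 for mt-Tm and -0.155 to 0.0964 for mt-Tw. They were -0.114 to 0.0471 for mt-Co1, -0.168 to 0.108 for mt-Atp8, -0.224 to 0.172 for mt-Nd4l, -0.205 to 0.0195 for mt-Nd4 and -0.236 to 0.0027 for mt-Nd5. For mt-Nd1, mt-Tw, mt-Co1, mt-Atp8, mt-Nd4l, mt-Nd4 and mt-Nd5 the highest value was the one without WT replicate 1. mt-Tq was at 0.0014 with RLE size factors and 0.0006 in DESeq2, beside -0.0038. The difference in mitochondrial share kept its sign without each library, from -0.243 to -0.00261 percentage points. The number of genes without overlap in composition was 5 to 10 under the alternatives, beside 7. Leaving out a library can only raise that number. Counts under about 50 for tRNAs limit their precision.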
